A study of Homo sapiens with 4 samples.

Results

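The genes described here encode the factors that hold RNA polymerase II in its promoter-proximal pause and release it: the 4 subunits of NELF (NELFA, NELFB, NELFCD, NELFE), the 2 subunits of DSIF (SUPT4H1, SUPT5H), the kinase P-TEFb (CDK9 with its cyclins CCNT1 and CCNT2) and its inhibitor HEXIM1. They were taken by gene symbol, 10 of the 60048 genes in the deposited table, and all 10 passed the filter on low values. Nascent RNA had been labelled with 0.5 mM 5-ethynyl uridine (EU), a uridine analogue, for 20 min in HCT116, a line from a human colorectal carcinoma, of the genotype RAD21-mAC, which fuses an auxin-inducible degron to the cohesin subunit RAD21. The control group (2 libraries) received DMSO. The auxin group (2 libraries) was depleted of RAD21 over 3 h in the auxin indole-3-acetic acid at 0.5 mM. Labelled RNA of fly S2 cells had been mixed in before capture; whether it set the scale of the table is not given in the sources used here. Both groups carry the tagged RAD21, so an action of the auxin itself and the loss of RAD21 cannot be told apart. Whether the line is 1 clone, and whether replicates were separate cultures, is not given in the sources used here. The p-values therefore rest on the spread between these libraries, which may be technical. That spread was taken largely from the trend over all genes and only partly from each gene's own replicates.

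After initiation, RNA polymerase II stops a short way into most genes, where DSIF and NELF bind it and hold it. P-TEFb then phosphorylates NELF, DSIF and the polymerase tail; NELF leaves, and DSIF stays on as an elongation factor. Much of the cell's P-TEFb is kept inactive by HEXIM1 bound to the 7SK small nuclear RNA, and the super elongation complex brings the active kinase to genes. The title of the series asks how cohesin bears on pause release and elongation, and the values below are the nascent RNA of the genes for these factors, not their proteins or their activity.

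The table's values, which the submitters name read counts, were not whole numbers and were treated as a scaled signal over the whole span of each gene, introns included. The signal summed over all genes ran from 61135244 to 93113007 across the 4 libraries. All values below, unless called deposited, were brought to 1 scale across libraries, which removes any change in total nascent RNA. The signal ignored strand: in 4058 pairs of a gene nested within another on the opposite strand, with values of at least 50, the nested gene exceeded its host in 0 pairs. Of 39464 genes tested, 289 had a limma adjusted p under 0.05, auxin against control, which is 0.732%; 158 were lower (0.4%) and 131 higher (0.332%). That count was 55 on the deposited scale and 0 with no trend of variance on mean level in the fit. On the deposited scale the variance came from that trend alone and not from the spread of each gene. The same held for the refits without auxin replicate 1 or without auxin replicate 2. The line's epithelial origin was visible in the medians of its markers. The 10 colorectal epithelial genes listed, among them EPCAM and KRT8, had a median of 262 to 310.2 per kb, against 0.875 to 2.14 for 10 markers of other tissues. All genes of both lists were above 0 in every library, and the lists overlapped. LGR5 of the epithelial list had 0.399 to 0.509 per kb. SYN1 (36.8 to 41.2) and COL1A1 (32.9 to 56.9) of the other list exceeded the epithelial VIL1 (20.0 to 24.9). Summed signal of the epithelial list was 64698 and 72004 in control and 64730 and 66352 in auxin, and that of the other list 2706 and 2988 in control and 3275 and 3519 in auxin.

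None of the 10 pausing-factor genes was called with auxin (limma, 0 of 10 at an adjusted p under 0.05, against 0.732% of all genes; 1 of 10 at an unadjusted p under 0.05, against 10.2%, and with the replicate number as a block 1 of 10 at an adjusted p under 0.05, against 10.8%). The block fit took its variance from the trend over all genes and not from the spread of each gene. Its p-values therefore do not measure a gene's own replicate spread. The unadjusted count held 1 lower member (5.47% of all genes were lower) and 0 higher (4.75%). The lowest ratio was that of SUPT4H1, at 0.762-fold of control, and the highest that of SUPT5H, at 1.13-fold. The other 8 lay between -0.15 and -0.0066 on the log2 scale. By sign, 9 of 10 were below 0, as were 19228 of all 39464 genes tested. The median log2 fold change of the members was -0.076, against 0.0089 over all genes tested. The signs of NELFA, NELFB, CDK9 and HEXIM1 turned without one or another library, and those of CDK9 and HEXIM1 also when libraries were scaled by their totals. The 95% confidence intervals of the 9 members other than SUPT4H1 all held 0 and together spanned 0.744-fold to 1.35-fold, before any correction for the number of genes. For 7 members the change was smaller than the larger of the differences between replicates of 1 group, and for NELFCD, SUPT4H1 and SUPT5H it was larger. In bulk RNA, fewer cells expressing a gene and less RNA per cell cannot be told apart.

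**Figure D1:**
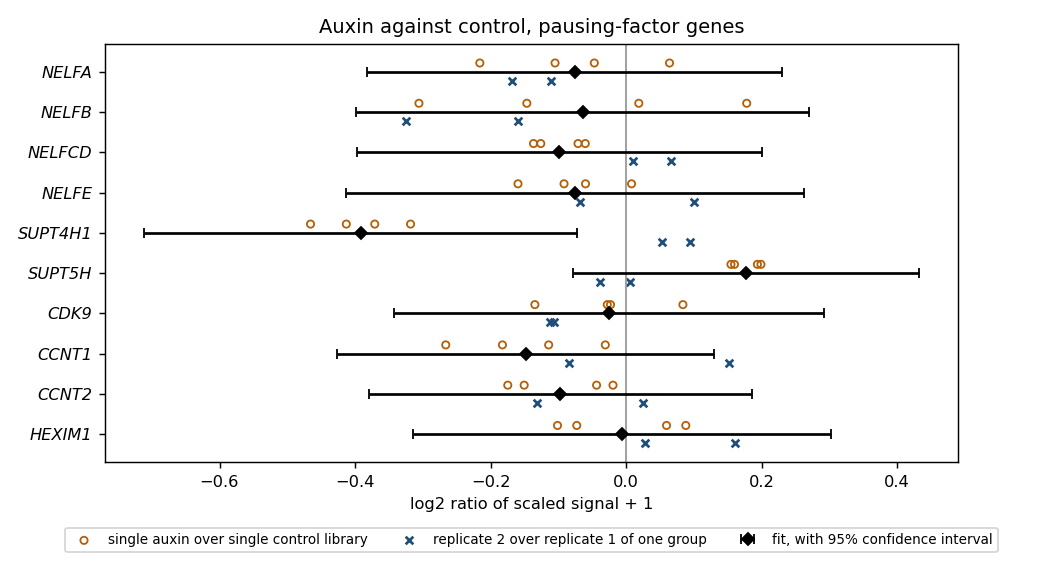
Log2 ratios of scaled signal (plus 1), auxin against control, for the 10 genes. Diamonds and bars are the fit over 2 libraries per group with its 95% confidence interval, open circles the 4 ratios of single libraries across groups, and crosses the replicate differences within each group; only the interval of SUPT4H1 leaves out 0.

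Levels between genes were compared per kb of genomic span, introns included, and the order depends on that choice. HEXIM1 had the highest level of the 10, with a mean over the 4 libraries of 1124 per kb, above 98.9% of tested protein-coding genes. CDK9 followed at 701 per kb and SUPT4H1 at 417 per kb. NELFE (309), NELFB (302), NELFCD (301), CCNT1 (290.4) and SUPT5H (289) came next in signal per kb, and their libraries overlapped in range. NELFA, at 180 per kb, and CCNT2, at 160.4 per kb, were lowest, and CCNT2 stood above 72.3% of tested protein-coding genes. The highest and lowest members thus differed 7.01-fold per kb, far more than any of them differed between groups. HEXIM1 (3.625 kb) and CDK9 (4.76 kb) were also the shortest of the 10, and CCNT2 (40.5 kb) the longest. By signal per gene, SUPT5H was highest and NELFE lowest, 4.77-fold apart. Because strand was ignored, the HEXIM1 level includes any signal of an antisense gene over 46.9% of its bases.

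**Figure D2:**
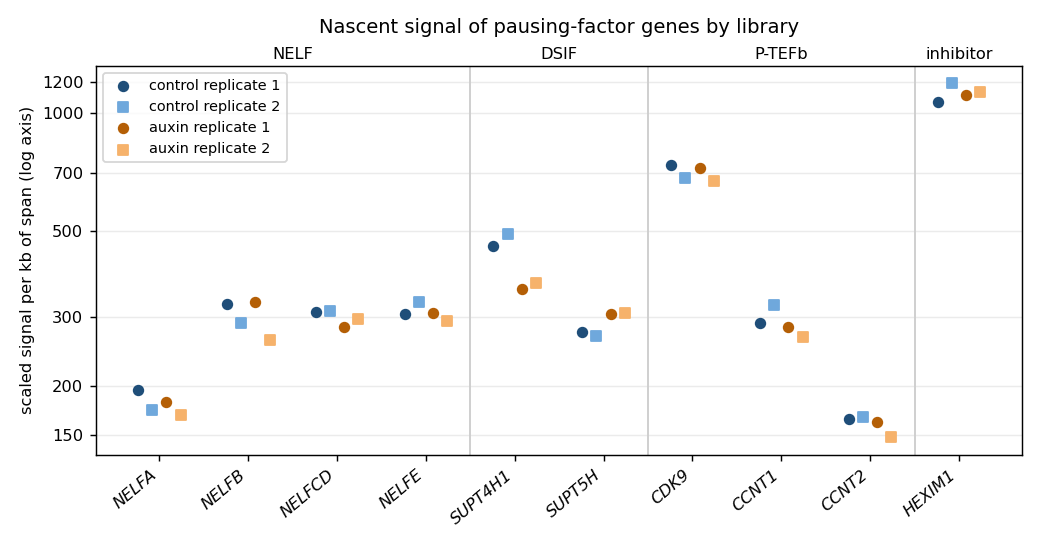
Scaled signal per kb of genomic span (log axis) for each gene and library, grouped by complex; circles are replicate 1 and squares replicate 2. HEXIM1 lies highest in all 4 libraries and CCNT2 lowest; SUPT4H1 and SUPT5H are the DSIF genes whose groups do not overlap, in opposite directions.

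The sequences just ahead of 3 start sites are shown for the highest gene per kb (HEXIM1), the lowest (CCNT2) and the gene with the largest difference between groups (SUPT4H1). They are the 250 bases before the RefSeq start, 5′ to 3′ on the gene's own strand. Capitals mark matches on either strand to 6 motifs: TATAAA as the core promoter's TATA box, CCGGAAG as the ETS site, GGGCGG as the GC box, CCAAT as the box of that name, GCATGCGC as a partial NRF1 site and AAGATGGCG as the YY1 site. The HEXIM1 window is chr17:45148225-45148474 (GRCh38.p14, plus strand), the CCNT2 window chr2:134918572-134918821 (plus strand) and the SUPT4H1 window chr17:58352202-58352451 (minus strand).
HEXIM1: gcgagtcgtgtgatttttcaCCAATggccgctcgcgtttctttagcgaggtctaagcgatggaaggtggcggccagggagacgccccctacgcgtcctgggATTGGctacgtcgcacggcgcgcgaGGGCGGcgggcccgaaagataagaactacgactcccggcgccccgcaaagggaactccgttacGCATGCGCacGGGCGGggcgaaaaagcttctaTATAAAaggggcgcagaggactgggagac
CCNT2: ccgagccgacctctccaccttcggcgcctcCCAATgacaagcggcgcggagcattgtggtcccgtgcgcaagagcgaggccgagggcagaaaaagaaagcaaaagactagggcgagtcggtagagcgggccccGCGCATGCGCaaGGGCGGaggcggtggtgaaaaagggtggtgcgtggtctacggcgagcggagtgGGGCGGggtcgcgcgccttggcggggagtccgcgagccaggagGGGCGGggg
SUPT4H1: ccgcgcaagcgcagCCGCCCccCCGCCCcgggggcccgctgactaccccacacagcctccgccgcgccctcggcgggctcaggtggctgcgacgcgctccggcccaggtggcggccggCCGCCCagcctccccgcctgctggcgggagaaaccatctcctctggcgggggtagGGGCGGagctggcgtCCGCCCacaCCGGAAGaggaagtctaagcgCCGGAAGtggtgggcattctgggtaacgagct
HEXIM1 was the 1 member of 10 with a TATA box match, 29 bases before its start; 10.7% of 35097 RefSeq windows of that length held one. SUPT4H1 held ETS matches 53 and 32 bases before its start, and 5 of the 10 members held at least 1, against 8.52% of all windows. GC boxes were found in 9 of 10 members (42.6% of all windows), CCAAT boxes in 3 (32%), partial NRF1 sites in 3 (2.63%) and a YY1 site in 1, SUPT5H (0.652%). The members' windows ran from 59.2% to 82.0% G and C, against a median of 58.0% over all windows. No matches to different motifs overlapped each other in the members, while matches to the partial NRF1 site on opposite strands can. RefSeq and the table gave the same start for 6 of the 10 members, those shown included, and the SUPT5H starts lay 3939 bases apart. These are letter matches, and binding was not measured here.

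NELF, the negative elongation factor, binds the paused polymerase and blocks its advance. NELFA (ENSG00000185049, GRCh38 chromosome 4, 1982717 to 2009235, minus strand) encodes a subunit that contacts the polymerase. It had scaled signals of 5184 and 4611 in control replicates 1 and 2 and 4821 and 4464 in auxin replicates 1 and 2. The groups overlapped, and in both of them replicate 1 was the higher. Its log2 fold change was -0.076 (SE 0.14, limma adjusted p = 0.953). The microRNA gene MIR943 lies inside NELFA and takes 94 of its bases. NELFB (ENSG00000188986, chromosome 9, 137255327 to 137273542, plus strand), a scaffold subunit also known as COBRA1, stood at 5912 and 5294 in control and 5989 and 4783 in auxin. The auxin libraries held both the highest and the lowest value, so the spread within auxin exceeded the difference between groups (log2 fold change -0.064, SE 0.15, limma adjusted p = 0.968).

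NELFCD (ENSG00000101158, chromosome 20, 58981208 to 58995131, plus strand), which encodes the C and D forms of another subunit, had 4311 and 4343 in control and 3951 and 4135 in auxin. Both auxin libraries lay below both control libraries, which 19.6% of all tested genes also did. The difference was small and not called (log2 fold change -0.098, SE 0.13, limma adjusted p = 0.922). NELFE (ENSG00000204356, chromosome 6, 31952087 to 31958971, minus strand), the subunit with an RNA recognition motif, had 2106 and 2257 in control and 2118 and 2020.2 in auxin. Its groups overlapped (log2 fold change -0.076, SE 0.15, limma adjusted p = 0.959). The microRNA gene MIR1236 lies within NELFE. Leaving out 1 library moved the log2 fold change of NELFE to between -0.12 and -0.026 and that of NELFCD to -0.058 without auxin replicate 1. Over the 4 NELF genes, all 4 log2 fold changes were below 0, those of NELFA and NELFB not under every setting, and none was called. Ratios within a library need no scaling: NELFA to NELFB per kb was 0.602 and 0.598 in control and 0.553 and 0.641 in auxin, NELFE to NELFB 0.943 and 1.13 against 0.936 and 1.12, and NELFCD to NELFB 0.954 and 1.07 against 0.863 and 1.13. In none of these 3 ratios, chosen after the values were seen, did the groups separate.

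DSIF is a dimer of SPT4 and SPT5 that joins NELF in the pause and travels with the polymerase after release. SUPT5H (ENSG00000196235, chromosome 19, 39441643 to 39476670, plus strand), which encodes its large subunit and a substrate of P-TEFb, had scaled signals of 9648 and 9390.4 in control and 10740.0 and 10779 in auxin. Both auxin libraries lay above both control libraries (18.6% of all tested genes did), and the replicates of each group were close. The log2 fold change was 0.18 (SE 0.12, limma adjusted p = 0.714), with a 95% confidence interval of 0.947-fold to 1.35-fold. No other gene of the table overlaps SUPT5H.

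SUPT4H1 (ENSG00000213246, chromosome 17, 58345178 to 58352201, minus strand), which encodes the small zinc-finger subunit, had 3213 and 3431 in control and 2484 and 2577 in auxin. Both auxin libraries lay below both control libraries. The log2 fold change was -0.39 (SE 0.14), with a 95% confidence interval of 0.611-fold to 0.951-fold and an unadjusted limma p of 0.0211. After adjustment over all genes the limma p was 0.343, so the difference was not called. With the replicate number as a block the adjusted limma p was 0.00783. The variance in that fit came from the trend over all genes and not from the spread of SUPT4H1 itself. The per-kb ratio of SUPT4H1 to SUPT5H within a library, which no scaling affects, was 1.66 and 1.82 in control and 1.15 and 1.19 in auxin. The groups of this ratio, chosen after the values were seen, did not overlap (two-sided exact permutation p = 0.333, the smallest that 2 against 2 libraries allow).

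SUPT4H1 stands in a stretch of chromosome 17 where the signal of its surroundings was lower with auxin too. RNF43 (ENSG00000108375, 58353676 to 58417582, minus strand), which encodes a ubiquitin ligase that removes WNT receptors from the cell surface, ends 1474 bases ahead of the SUPT4H1 start on the same strand. RNF43 had 17600 and 20309 in control and 9979 and 11198 in auxin, and fell by 0.84 on the log2 scale (SE 0.12, limma adjusted p = 0.0149). That call was lost on the deposited scale, with no intensity trend in the fit, and at an adjusted p under 0.01. It was also lost without control replicate 2 (log2 fold change -0.74). The whole of SUPT4H1 lies within the antisense lncRNA gene TSPOAP1-AS1, which had 5121 and 5246 in control and 3586 and 3621 in auxin (log2 fold change -0.52, limma adjusted p = 0.137). AC004687.2, an entry that spans SUPT4H1 and RNF43 and shares 99.6% of the bases of SUPT4H1, fell by 0.76 (limma adjusted p = 0.0179). Its call was lost under the same alternatives. Strand was ignored, so TSPOAP1-AS1 and AC004687.2 repeat signal of the genes they span. In control replicate 1, RNF43 had 17600 against the 21178 of AC004687.2, and SUPT4H1 had 3213 against the 5121 of TSPOAP1-AS1. TSPOAP1, the nearest tested protein-coding gene past the SUPT4H1 end, was low, at 41.5 and 71.6 in control and 33.9 and 50.5 in auxin.

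Signal was taken to add up over nested spans, which was not tested. The stretch between the 2 genes was then read by subtracting RNF43 and SUPT4H1 from AC004687.2 (the edges of these spans differ by at most 28 bases). It held 365 of the 21178 of AC004687.2 in control replicate 1, so any signal counted in both spans at an edge would weigh on it. This stretch, which holds the SUPT4H1 window printed above, had 248 and 245 per kb in control and 159 and 146 per kb in auxin. It thus carried 52.1% of the control level of SUPT4H1 per kb, and was lower with auxin by 0.69 on the log2 scale. The 20.7 kb of TSPOAP1-AS1 past the SUPT4H1 end had 74.5 and 70.2 per kb in control and 41.9 and 40.02 per kb in auxin, a log2 difference of -0.82. In all of these segments both auxin libraries lay below both control libraries, and the log2 difference of SUPT4H1, -0.39, was the smallest. With the level between the genes taken off, SUPT4H1 had 209.6 and 243 per kb in control and 195 and 221 per kb in auxin, with means of 226 ± 24 and 208 ± 18 (SD, n = 2 each), and the groups overlapped. The level past the SUPT4H1 end was only 15.3% of the control level of SUPT4H1 per kb. With that lower level of each library taken off instead, both auxin libraries stayed below both control libraries. Which level applies within SUPT4H1 is not known. These subtractions were made after seeing the data and carry no test; whether signal from RNF43 runs into SUPT4H1 was not tested.

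**Figure D3:**
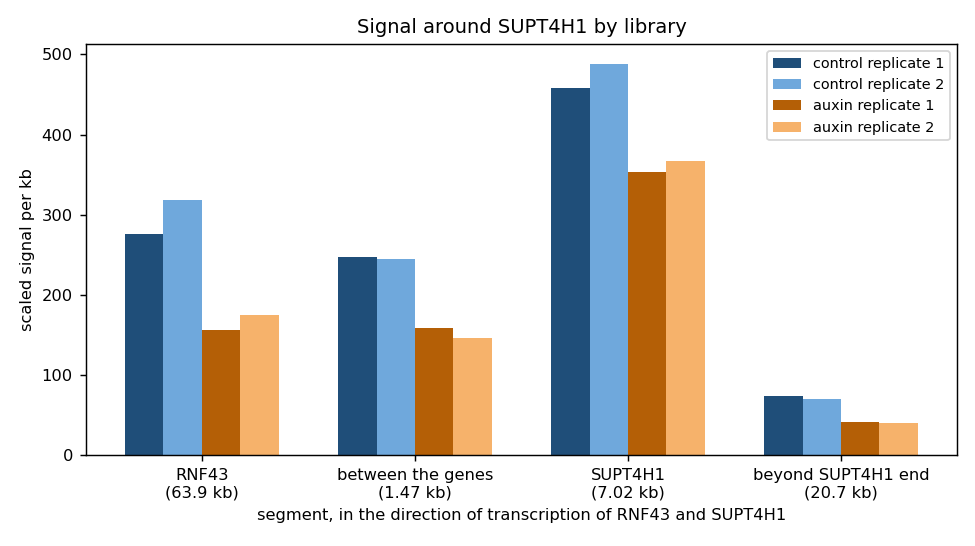
Scaled signal per kb, by library, in 4 adjoining segments ordered in the direction in which RNF43 and SUPT4H1 are transcribed; the segment between the genes and that beyond SUPT4H1 come from subtraction. Bars of the auxin libraries are lower than those of the control libraries in each segment.

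P-TEFb releases the pause by phosphorylation. CDK9 (ENSG00000136807, chromosome 9, 127786034 to 127790792, plus strand), its catalytic subunit, had 3496 and 3236 in control and 3430 and 3185 in auxin. The groups overlapped, and the replicates differed by more than the groups (log2 fold change -0.025, SE 0.14, limma adjusted p = 0.989). CCNT1 (ENSG00000129315, chromosome 12, 48688458 to 48716998, minus strand), the main cyclin partner of CDK9 and the one used by the HIV transactivator Tat, had 8261 and 9178 in control and 8087 and 7631 in auxin. Both auxin libraries lay below both control libraries, and the log2 fold change was -0.15 (SE 0.12, limma adjusted p = 0.819). CCNT2 (ENSG00000082258, chromosome 2, 134918822 to 134959342, plus strand), the other cyclin partner, had 6657 and 6769 in control and 6568 and 5998 in auxin. It too was below control in both auxin libraries, one of them narrowly (log2 fold change -0.097, SE 0.13, limma adjusted p = 0.916). Without auxin replicate 2 the log2 fold change of CCNT2 was -0.032 and without auxin replicate 1 it was -0.15, while that of CCNT1 was -0.073 without control replicate 2. The per-kb ratio of CCNT1 to CCNT2 was 1.76 and 1.92 in control and 1.75 and 1.81 in auxin, and its groups overlapped.

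HEXIM1 (ENSG00000186834, chromosome 17, 45148475 to 45152099, plus strand) encodes the protein that inhibits CDK9 within the 7SK particle. It had 3859 and 4315 in control and 4022 and 4102 in auxin, with both auxin values inside the control range. The log2 fold change was -0.0066 (SE 0.14, limma adjusted p = 0.997; 95% confidence interval 0.804-fold to 1.23-fold), and its sign depended on the setting, at 0.029 when libraries were scaled by their totals. The antisense lncRNA gene AC138150.1 covers 46.9% of the bases of HEXIM1 and shares their signal; it had 3128 and 2995 in control and 3751 and 3493 in auxin (log2 fold change 0.24, limma adjusted p = 0.654). The per-kb ratio of CDK9 to HEXIM1 was 0.690 and 0.571 in control and 0.649 and 0.591 in auxin, with overlapping groups. On the deposited scale, where the auxin libraries differ most in total, all 10 members were lowest in auxin replicate 1, and 7 were highest in auxin replicate 2.

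Across the members, the groups did not overlap in 5 of 10 genes, 4 lower and 1 higher with auxin. Over all genes tested this held for 38.2%, 19.6% lower and 18.6% higher.

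The other genes of the pathway, 42 in 4 lists, were all tested and none was called (limma, 0 of 42 at an adjusted p under 0.05; 4 at an unadjusted p under 0.05, against 10.2% of all genes; 2 lower, against 5.47%, and 2 higher, against 4.75%). With the replicate number as a block 8 of the 42 were called, against 10.8% of all genes, DDX21 and MLLT3 among them (limma adjusted p = 0.00789 and 0.00351). As above, the block fit took its variance from the trend over all genes. In the list of the 7SK particle and of factors that recruit P-TEFb, 4 of 8 genes were below 0 and 4 above, with a median of 0.015. Its smallest p was that of DDX21, an RNA helicase that frees P-TEFb from 7SK, which had 15531 and 18647 in control and 13640 and 13366 in auxin (log2 fold change -0.33, limma adjusted p = 0.341; -0.20 without control replicate 2). PPM1G, a phosphatase that acts on P-TEFb, also passed the unadjusted threshold (log2 fold change -0.32, limma adjusted p = 0.363). The 7SK RNA gene itself, RN7SK, stood at 973 and 1235 in control and 1065 and 1290.3 in auxin, and its groups overlapped. HEXIM2, the paralogue of HEXIM1, had a log2 fold change of 0.030.

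In the super elongation complex, which delivers P-TEFb to paused polymerase, 6 of 9 genes were above 0, as were 20236 of all 39464 genes tested. The median of this list was 0.15, against 0.0089 over all genes. MLLT3, which encodes a reader of acylated histones, had the smallest p of the 42 genes, with 442 and 448 in control and 612 and 727 in auxin. MLLT3 spans 281 kb, and its level per kb was low, at 1.57 and 1.60 in control and 2.18 and 2.59 in auxin. That is close to the medians of the markers of other tissues. Its log2 fold change was 0.58 (SE 0.20, limma adjusted p = 0.284). AFF1, a scaffold of the complex, had 8781 and 7595 in control and 10490 and 10663 in auxin (log2 fold change 0.37, limma adjusted p = 0.284). In both genes the 2 auxin libraries lay above the 2 control libraries. That held for 4 of the 9 genes of this list (18.6% of all genes), and the reverse for 2, ELL3 and EAF2 (19.6%). Of the other kinases and phosphatases of the polymerase tail, taken with their cyclins and partner proteins, 6 of 12 were below 0, with a median of -0.010. The smallest p of that list was that of CDK7, the kinase of TFIIH (log2 fold change 0.20, limma adjusted p = 0.761). The log2 fold change of CDK7 was 0.036 without auxin replicate 2 and 0.37 without auxin replicate 1. Of the RNA polymerase II subunit genes, 9 of 13 were below 0 (19228 of all 39464 genes tested), with a median of -0.090. POLR2B, its second-largest subunit, had 10140 and 11300 in control and 8937 and 8848 in auxin (log2 fold change -0.27, limma adjusted p = 0.490).

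**Figure D4:**
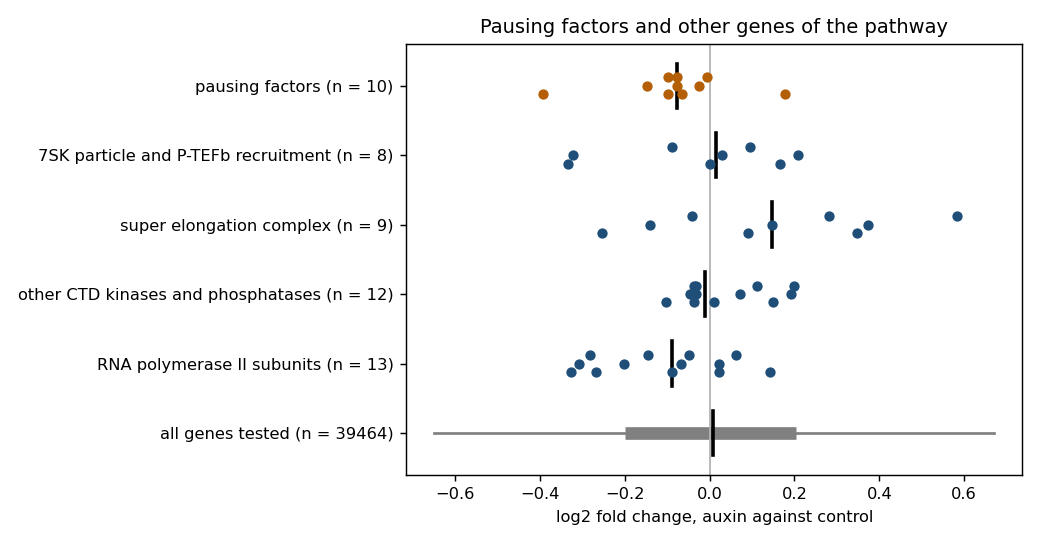
Log2 fold changes, auxin against control, of the 10 pausing factors and of 42 other genes of the pathway in 4 lists; each point is a gene and black bars are medians. The grey bar spans the 25th to 75th percentile and the grey line the 5th to 95th percentile of all 39464 genes tested (-0.65 to 0.67); all points of the lists lie within that line.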

How the data were processed

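EU-labelled nascent RNA was measured in 4 libraries. Trimmomatic 0.39, Bowtie2 2.4.5, deepTools 3.5.1 and the builds hg38 and dm6 are listed in the submitters' processing notes with no role; the counting step, annotation and scaling are not given in the sources used here. The deposited table holds a scaled signal for each gene over its whole genomic span. Up to 20 times the lowest value above 0, 100% of the values in 3 columns and 99.9% in that of auxin replicate 1 were within 0.01 of whole multiples of 1 step (0.847 and 1.04 in the control libraries, 0.727 and 1.36 in the auxin libraries). Of 22246 genes of at least 10 kb, between 2 and 8 per library held 1 step between 141 and 221 held 2 and between 163 and 212 held 3, so a step was not taken as a read, although what it stands for is not given in the sources used here. Reads per library are therefore not known, and precision rests on the replicates. The misspelt heading of 1 control column was read through its replicate number.

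Genes entered the test when 2 or more libraries reached 10 (rescaled to the median library total) and the sum over libraries reached 15. Libraries were divided by 0.999, 1.01, 0.816 and 1.21, from trimmed means of M-values (trimming 30% of log ratios and 5% of levels per end). The log2 of the scaled value plus 1 was fitted with limma 3.58.1 (R 4.3.3), lmFit then eBayes (trend on mean level), for auxin against control in all 39464 genes tested; the Benjamini-Hochberg adjusted p had to be under 0.05. The trend entered each gene's variance with 8.23 prior degrees of freedom. Standard errors, intervals and p-values thus rest more on the trend than on a gene's own replicates. The procedure was tested on simulated data, drawn independently from the means and variances of the same fit. Such data cannot show whether those variances suit these libraries. The members and gene lists were chosen with earlier results of these data known. Named genes were the 10 members, the gene with the smallest p in each pathway list and any called there, genes overlapping a member, and the nearest tested protein-coding genes on either side of a member with an unadjusted p under 0.05. PPM1G, AFF1, RN7SK, HEXIM2, ELL3, EAF2 and the markers LGR5, VIL1, SYN1 and COL1A1 are outside that rule and were named after their values were seen. Alternatives were 3 other scalings, 2 filters, 2 pseudocounts, no trend, the replicate number as a block, 2 thresholds and leaving out each library; signal beside SUPT4H1 and ratios between members were added after seeing the data. Promoter sequences come from RefSeq (GRCh38.p14). Python 3.11.15, pandas 2.3.3 and matplotlib 3.10.9 were used for tables and figures.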

Additional observations from a re-analysis of the deposited data

How the results depend on the processing

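No member was called under the alternatives to scaling, filter, pseudocount or trend, or without any single library; SUPT4H1 lay between -0.43 and -0.34 on the log2 scale in all 13 refits. Over all genes, 289 calls became 55 on the deposited scale, 82 at an adjusted p under 0.01, 4033 at an unadjusted p under 0.05, and 0 without the intensity trend (3198 at an unadjusted limma p under 0.05); leaving out 1 library gave between 132 and 681. At an unadjusted p under 0.05, 1 member and 4 pathway genes passed. No label ties the numbers to a common day or batch, and 2 pairs cannot show a pairing (Pearson's r of the replicate differences across genes was 0.23 over all genes tested and 0.46 over the 29158 whose mean reached 50). Under the replicate block, calls numbered 4273 (10.8% of those tested), among them 1 member, SUPT4H1 (limma adjusted p = 0.00783), and 8 pathway genes. The variance in the block fit came from the trend alone, so these p-values do not rest on the replicate spread of each gene. Members near 0 changed sign: with library totals as the scale CDK9 was at 0.0099 and HEXIM1 at 0.029, and with no filter HEXIM1 was at 0.00016. Without 1 library at a time, NELFA ranged from -0.16 to 0.018, NELFB from -0.22 to 0.097, CDK9 from -0.082 to 0.040, HEXIM1 from -0.078 to 0.074 and MIR1236 from -0.088 to 0.26. Highest over lowest member was 7.01-fold per kb and 4.77-fold per gene (SUPT5H over NELFE). The cause of these shifts was not tested. Count-model tests were not run, since a step of the values was not taken as a read.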
